A study of Mus musculus with 8 samples.

Results

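The genes described here encode proteins of the slit diaphragm and the foot processes of podocytes, the epithelial cells that cover the outer face of the capillaries in the kidney glomerulus. The list was drawn up by name and holds 10 genes: Nphs1, Kirrel, Cd2ap, Ptpro, Podxl, Synpo, Plce1, Magi2, Tjp1 and Trpc6. For each symbol the probe set with a single gene symbol and the highest mean over all arrays was taken. This gave 9 of the 10 genes, out of 22180 genes measured, and Magi2 was not analysed here. Each of the 9 had 1 such probe set.

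RNA of isolated mouse glomeruli was measured on 8 Affymetrix arrays, 1 per sample. The 2 control arrays came from mice whose genotype is given only as control. The other arrays came from mice labelled Tln1 Pod-rtTA TetO-Cre, 3 of them given vehicle (Tln1 vehicle) and 3 given valproic acid, a histone deacetylase inhibitor (Tln1 VPA). Tln1 encodes talin 1, which links integrins to actin, and doxycycline switches on the Cre recombinase in cells that carry the rtTA transgene. All 3 groups had doxycycline for 3 weeks from 8 weeks of age and were 13 weeks old when sampled. Vehicle or valproic acid followed doxycycline for 2 weeks, and the labels do not say whether controls had vehicle. The promoter of the Pod-rtTA transgene and any pooling of animals are also not stated. No label says that the arrays of a group are separate mice, so what the p-values measure is the spread among these arrays, and that spread may be technical.

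Podocytes wrap the capillary with interlocking foot processes, and the slit between neighbouring processes is bridged by the slit diaphragm. Nephrin and its relatives span this slit, adaptor proteins tie their tails to the actin cytoskeleton, and negatively charged surface proteins keep the processes apart. Loss of several of these proteins in mice or humans causes proteinuria, and foot process effacement is the structural sign of podocyte injury. The design text describes the non-control mice as proteinuric, and the comparisons ask whether the genes of this structure differ between control and Tln1 glomeruli and between vehicle and valproic acid.

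The values are on a log2 scale, so a difference of 1 is a doubling. Clustering of all genes split the arrays into sets that cut across the groups: the second set held control 2, Tln1 vehicle 3 and Tln1 VPA 3, and the first set the other 5 arrays. The correlation between arrays was 0.990 to 0.995 within the sets and 0.966 to 0.979 between them. These sets were drawn from the same values that are tested, so p-values from a fit with the set as a block may be too small. The median SD within groups over all genes was 0.21, and 0.12 with that block. Podocyte content was gauged by the mean of 22 other podocyte genes, called the podocyte reference, of 23 listed. Its mean log2 level was 7.39 to 7.84 in first-set arrays and 8.03 to 8.62 in second-set arrays, whereas the mean of 11 proximal tubule markers was 11.42 to 12.02 and 10.36 to 10.93. For 6 macrophage markers these ranges were 4.65 to 5.10 and 4.98 to 5.78, and for 3 Y-linked genes 3.57 to 7.0 and 2.56 to 2.72. Within the first set the Y-linked mean also differed by group. It was 3.57 in control 1, 5.77 and 7.0 in the Tln1 vehicle arrays and 4.85 and 5.83 in the Tln1 VPA arrays, and the reason was not tested. Levels under vehicle and under valproic acid are those of the Tln1 mice, in the order of their array numbers. By group, the podocyte reference spanned 7.50 to 8.62 in the controls, 7.70 to 8.31 under vehicle and 7.39 to 8.03 under valproic acid. Tln1 itself had levels of 8.97 and 8.64 in the controls, 8.95, 8.95 and 8.60 under vehicle and 8.76, 8.88 and 8.59 under valproic acid, so the groups overlapped at the targeted gene. These are whole glomeruli, in which other cell types also express Tln1, and where its probes lie relative to the deleted part is not given, so this checks the labels only weakly.

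Nphs1 encodes nephrin, the transmembrane protein whose extracellular chains form the slit diaphragm. Its log2 level (probe set 17476389) was 7.59 and 9.76 in the control arrays, 8.33, 8.02 and 9.36 in the Tln1 vehicle arrays and 7.21, 8.00 and 8.71 in the Tln1 VPA arrays. The highest array of each group was the one in the second set, the lowest and the highest of all groups were Tln1 VPA 1 and control 2, and all groups overlapped. Kirrel encodes Neph1, a nephrin relative that binds nephrin across the slit. Across the arrays Kirrel (probe set 17406492) had a level of 5.47 and 7.18 in the controls, 6.0, 5.43 and 6.88 under vehicle and 5.51, 5.70 and 6.52 under valproic acid. As for Nphs1, the second-set arrays were the highest of their groups, and the 2 controls were 1.71 apart.

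Podxl encodes podocalyxin, the sialomucin that coats the foot processes and is also made by endothelium. The level of Podxl (probe set 17465620) was 9.57 and 11.13 in the controls, 10.06, 9.83 and 10.999 under vehicle and 9.31, 9.83 and 10.67 under valproic acid. Ptpro encodes the receptor tyrosine phosphatase GLEPP1 of the foot process surface. For Ptpro (probe set 17463851) the level was 6.32 and 9.82 in the controls, 7.70, 7.42 and 9.26 under vehicle and 6.72, 7.44 and 9.09 under valproic acid. The Ptpro arrays spanned 3.49, the widest range of the 9 genes, and its extremes were the 2 control arrays.

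Cd2ap encodes an adaptor that binds the nephrin tail and actin regulators. Cd2ap (probe set 17345038) had a level of 9.72 and 10.11 in the controls, 9.89, 9.76 and 10.16 under vehicle and 9.93, 10.03 and 10.23 under valproic acid, a range of 0.52 over all arrays. Tjp1 encodes ZO-1, a junction scaffold found in many epithelia and endothelia besides the slit diaphragm. The level of Tjp1 (probe set 17491853) was 8.56 and 9.44 in the controls, 8.95, 8.73 and 9.54 under vehicle and 8.65, 8.91 and 9.42 under valproic acid. Synpo encodes synaptopodin, an actin-associated protein of the foot processes. For Synpo (probe set 17354608) the level was 6.63 and 7.26 in the controls, 6.68, 6.46 and 7.15 under vehicle and 6.11, 6.66 and 6.58 under valproic acid. The lowest Synpo array was Tln1 VPA 1 and the highest was control 2, and here too the groups overlapped.

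Plce1 encodes phospholipase C epsilon 1, a signalling enzyme mutated in some inherited nephrotic syndromes. Plce1 (probe set 17359160) had a level of 6.66 and 8.28 in the controls, 7.19, 6.60 and 7.29 under vehicle and 6.56, 6.95 and 7.77 under valproic acid. Trpc6 encodes a cation channel of the foot process membrane. The level of Trpc6 (probe set 17514623) was 3.55 and 3.65 in the controls, 3.66, 3.44 and 3.65 under vehicle and 3.30, 3.56 and 3.67 under valproic acid. With a mean of 3.56 Trpc6 lay below the median gene mean of 4.92, where a flat profile says little about the transcript. The other 8 genes lay above that median.

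**Figure D1:**
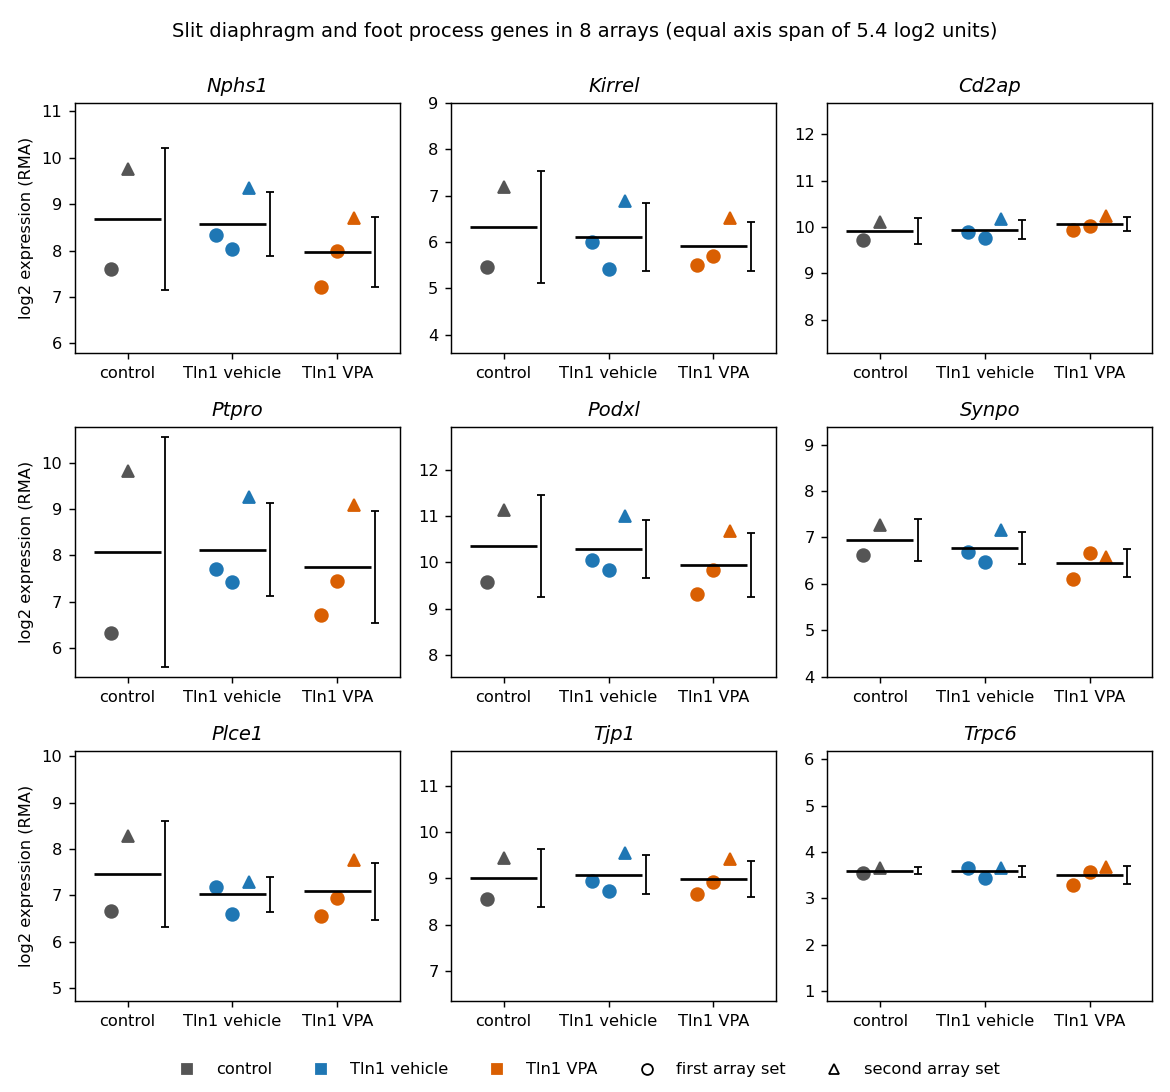
Log2 level (vertical axis) of each of the 9 genes in every array, by group, with a marker shape for the array set and a line for the group mean. In 7 of the 9 genes every second-set array lies above every first-set array, while the groups overlap for all 9.

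In each of the 3 groups the second-set array was higher than the mean of the first-set arrays of that group for all 9 genes. In 7 of the 9, all except Synpo and Trpc6, every second-set array lay above every first-set array, as did 13.2% of all genes. The mean difference within groups was 2.40 for Ptpro, 1.48 for Nphs1, 1.26 for Kirrel, 1.24 for Podxl and 1.01 for Plce1. For Tjp1, Synpo, Cd2ap and Trpc6 it was 0.74, 0.47, 0.33 and 0.15. The podocyte reference mean differed by 0.72, being the average of genes that ranged from Robo2 (1.67) and Wt1 (1.66) to Pla2r1 (-0.38) and Htra1 (-0.60), named here after their values were seen. Of the 22 reference genes 7 had a difference below 0.11, Pla2r1 and Htra1 among them. The reference mean is therefore an imperfect gauge, and an equal reference level need not be an equal podocyte content. In control the reference difference was 1.12, against 0.53 in Tln1 vehicle and 0.50 in Tln1 VPA. In a whole-glomerulus sample, fewer podocytes and less RNA per podocyte cannot be told apart.

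**Figure D2:**
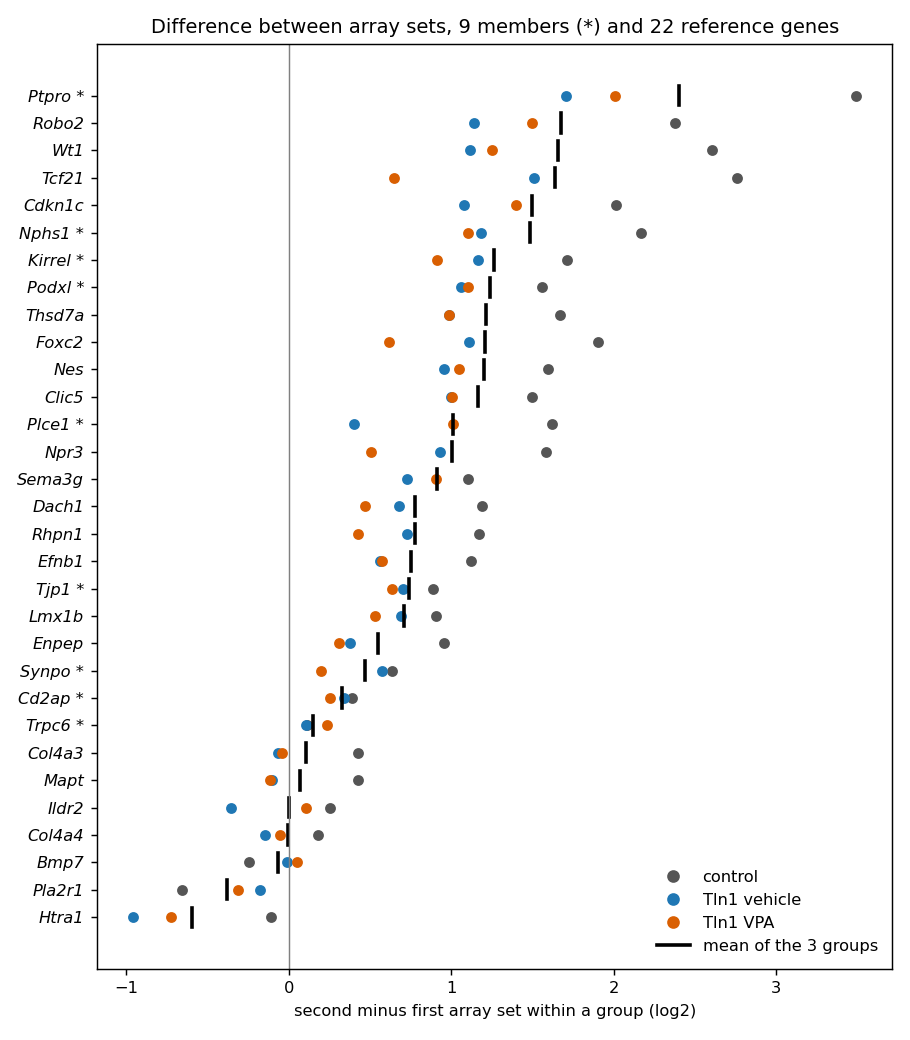
Second-set minus first-set log2 level within each group (horizontal axis) for the 9 genes (*) and the 22 podocyte reference genes. Each has 1 point per group and a bar for the mean of the 3 groups. Of the 9 genes, Ptpro has the widest differences (3.49 in the controls, 1.70 under vehicle and 2.01 under valproic acid). Trpc6 has the smallest mean difference of the 9 (0.15), although under valproic acid Synpo (0.20) lies below Trpc6 (0.24).

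The genes differed in how steeply they followed the podocyte reference. On the fitted line within groups, 1 log2 unit of the reference went with 3.24 units of Ptpro, 2.06 of Nphs1, 1.69 of Kirrel, 1.65 of Podxl and 1.43 of Plce1. The slope was 0.98 for Tjp1, 0.69 for Synpo, 0.43 for Cd2ap and 0.22 for Trpc6, which describes 8 arrays that mostly fall into the sets above. The SD within groups, pooled over the groups, was 0.94 for Nphs1, which became 0.49 once the reference of the same array was subtracted. Subtraction narrowed the SD of 7 genes, from 0.46 to 0.11 for Tjp1 and from 0.77 to 0.33 for Podxl. It widened that of Cd2ap from 0.20 to 0.27 and that of Trpc6 from 0.15 to 0.37. The median SD over all genes was 0.21.

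**Figure D3:**
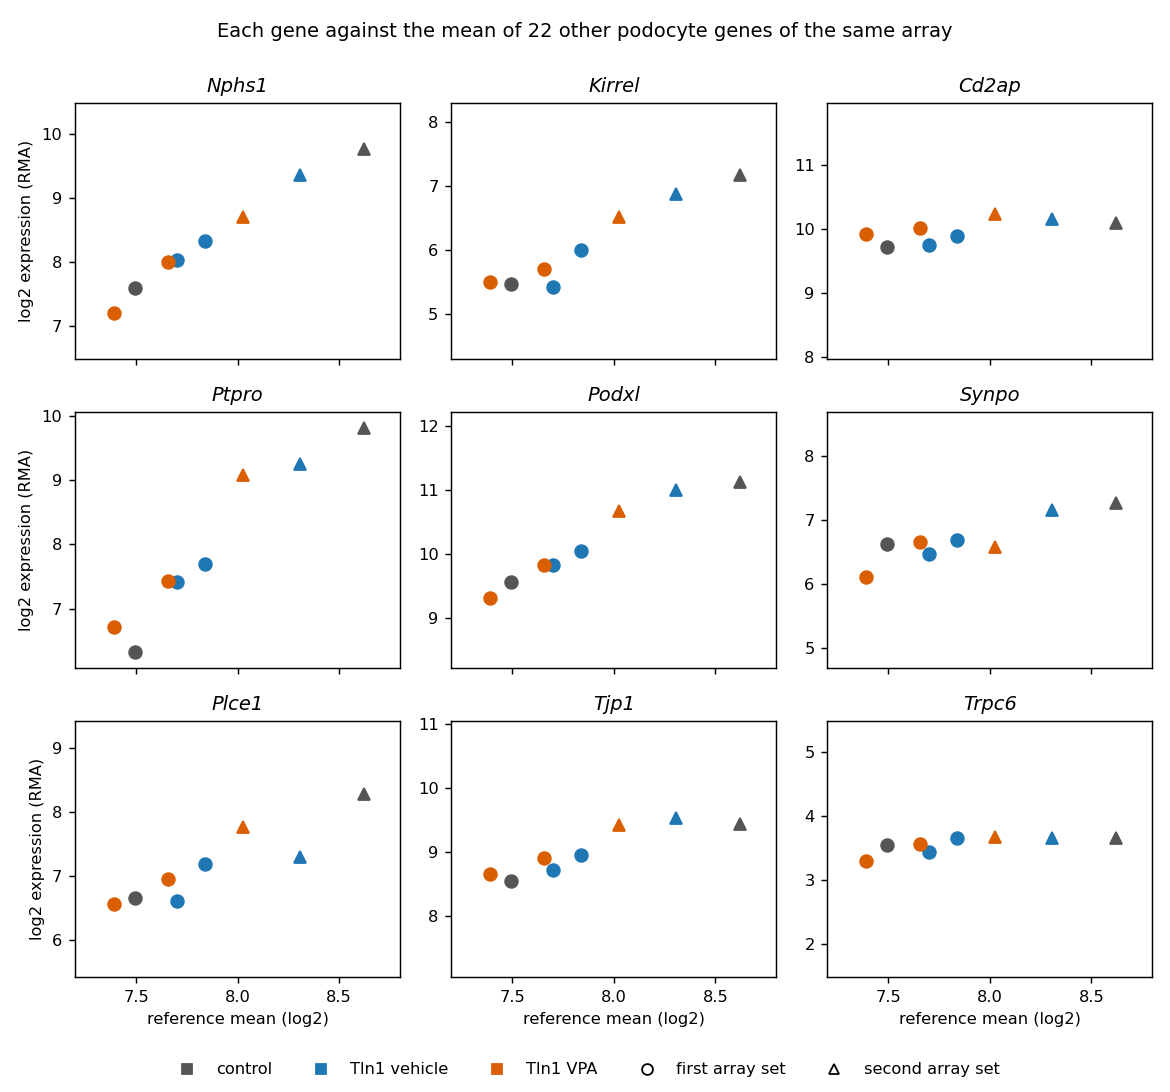
Log2 level of each of the 9 genes (vertical axis) against the podocyte reference mean of the same array (horizontal axis), coloured by group, with a marker shape for the array set. Ptpro climbs most steeply and Cd2ap and Trpc6 least, and most of the spread along the horizontal axis is between the array sets.

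The shape of the array profiles was compared by the root mean square difference of centred log2 values over the 8 arrays. Podxl lay nearest to the mean profile of the 9 genes (0.138) and Ptpro farthest (0.686). Kirrel and Podxl were each other's nearest (0.16), and Cd2ap and Trpc6 were too (0.151), as genes that varied little. Among 11082 other genes above the median gene mean, the 5 most like the mean profile were Grk5 (0.098), Mmp23 (0.112), Clic5 (0.113), Coro2b (0.117) and Foxd2os (0.118). Of these, Clic5, a chloride channel family protein of foot processes, belongs to the podocyte reference.

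Since these genes moved to different degrees with the array sets, the promoters of 4 of them are shown for their base composition. They are the ends of that range among the genes with a promoter sequence: Ptpro and Nphs1, with the largest mean difference between the sets, and Cd2ap and Trpc6, with the smallest. The sequences are RefSeq's (GRCm38.p6), from 250 bases before to 50 after the annotated start, 5′ to 3′ on the strand of the gene, with each CG dinucleotide in capitals.
Ptpro: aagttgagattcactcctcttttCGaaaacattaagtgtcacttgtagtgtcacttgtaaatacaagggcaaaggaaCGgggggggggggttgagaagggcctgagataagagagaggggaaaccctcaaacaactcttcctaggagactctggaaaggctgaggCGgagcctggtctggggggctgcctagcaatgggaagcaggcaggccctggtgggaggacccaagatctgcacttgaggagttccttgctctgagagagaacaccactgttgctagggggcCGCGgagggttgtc
Nphs1: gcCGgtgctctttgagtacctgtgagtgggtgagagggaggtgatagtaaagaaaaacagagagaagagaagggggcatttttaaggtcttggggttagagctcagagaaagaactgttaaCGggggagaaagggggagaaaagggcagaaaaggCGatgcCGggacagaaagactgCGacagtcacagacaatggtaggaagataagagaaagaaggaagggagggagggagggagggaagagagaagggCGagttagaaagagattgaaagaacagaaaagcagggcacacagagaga
Cd2ap: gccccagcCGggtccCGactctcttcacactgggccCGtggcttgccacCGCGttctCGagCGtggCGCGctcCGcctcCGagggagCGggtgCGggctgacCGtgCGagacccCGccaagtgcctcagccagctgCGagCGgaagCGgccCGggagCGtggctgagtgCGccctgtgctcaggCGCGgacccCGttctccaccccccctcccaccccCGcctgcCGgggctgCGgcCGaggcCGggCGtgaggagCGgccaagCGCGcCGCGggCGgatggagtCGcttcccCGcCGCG
Trpc6: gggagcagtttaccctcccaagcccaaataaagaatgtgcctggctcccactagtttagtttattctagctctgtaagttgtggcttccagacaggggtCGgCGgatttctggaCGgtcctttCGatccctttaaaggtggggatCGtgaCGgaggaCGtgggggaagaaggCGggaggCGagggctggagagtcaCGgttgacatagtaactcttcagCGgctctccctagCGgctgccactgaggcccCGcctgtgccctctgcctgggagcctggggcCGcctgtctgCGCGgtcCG
They lie at chr6:137252049-137252348 (plus strand) for Ptpro, chr7:30459808-30460107 (plus) for Nphs1, chr17:42876375-42876674 (minus) for Cd2ap and chr9:8543892-8544191 (plus) for Trpc6. Of the 9 genes 7 matched this table, and Podxl and Synpo did not. The CG dinucleotide occurred 6 times in the Nphs1 promoter, 5 times in that of Ptpro and 8 times in that of Plce1, near the median of 7 over 32851 promoters. It occurred 28 times in Kirrel, 31 in Tjp1 and 41 in Cd2ap, and 96.5% of promoters held fewer than Cd2ap. In Trpc6 it occurred 17 times. The mean difference between the array sets was 2.40 for Ptpro, 1.48 for Nphs1 and 1.01 for Plce1, and 0.74 for Tjp1 and 0.33 for Cd2ap. Kirrel, rich in CG, differed by 1.26, and Trpc6 by 0.15. Trpc6 lay below the median gene mean, where a small difference says little about the transcript. A relation of these differences to CG content was not tested.

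The same 7 windows were searched on both strands for short motifs of podocyte and general factors. GCGNGGG, the core bound by WT1 and EGR zinc fingers, was found in Kirrel, Tjp1, Trpc6 and Cd2ap and in 23.2% of all promoters. GGGCGG, the GC box, which can overlap GCGNGGG, was found in Kirrel, Tjp1 and Cd2ap and in 35.7% of all promoters. CAGCTG, an E-box, was found in Cd2ap and in 16.3% of all promoters. TAATTA (LIM homeobox core, 5.29% of all promoters) and GTAAACA (forkhead core, 3.65%) had no match in the 7 windows. Nor did TATAAA, the core of the box near many start sites, which 13.6% of all promoters held. A match is only a string of letters, and an absent one says nothing of the factor.

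None of the 9 genes passed the test between Tln1 vehicle and control. The mean log2 level of Nphs1 was 8.68 ± 1.53 (SD, n = 2) in control and 8.57 ± 0.70 (SD, n = 3) in Tln1 vehicle, a change of -0.10 with a standard error of 0.71 and a 95% interval of -1.75 to 1.54. Plce1 had the largest change, -0.44 with an interval of -1.64 to 0.76, and Cd2ap a narrower interval, from -0.40 to 0.45 around 0.028. Of the 9 genes 3 had a higher and 6 a lower mean, with a median change of -0.057 against 0.019 over all genes. That count turned to 6 higher and 3 lower with the array set as a block (median 0.082) and at equal podocyte reference level (median 0.075). The adjusted p from limma was 1.00 for each, and 0 genes of 22180 (0%) were called at an adjusted p below 0.05. At an unadjusted p below 0.05 the 9 genes gave 0 and all genes 322 (1.45%). The arrays of the groups overlapped for every one of the 9 genes, whereas they did not for 8.37% of all genes.

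The direction of that comparison turned on single arrays, and the array sets were not balanced between its groups. The second set held a larger share of the control arrays than of the Tln1 vehicle arrays. In the first set alone the change was 0.58 for Nphs1, 1.23 for Ptpro and 0.37 for Podxl, but in the second set it was -0.40, -0.56 and -0.13, with 1 array a group there. Without control 1 the median change of the 9 genes was -0.84 and 0 of them were higher. Without control 2 it was 0.52 and 9 were higher, and without Tln1 vehicle 3 it was -0.41 and 0 were higher. Each of these omissions also left 1 group with arrays of a single set. Blocked on the array set, 0 of the 9 genes and 0% of all genes were called, and 7.3% of all genes had an unadjusted p below 0.05, against 0 of the 9.

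Between Tln1 VPA and Tln1 vehicle the means were lower with valproic acid for 7 of the 9 genes, and none passed the test. At equal podocyte reference level, described further on, the count turned to 6 higher and 3 lower. Nphs1 had a mean of 7.97 ± 0.75 (SD, n = 3) in Tln1 VPA, a change of -0.60 with a standard error of 0.63 and a 95% interval of -2.07 to 0.87. Set by set the difference was -0.57 and -0.65. Podxl had -0.36 with a standard error of 0.51 and -0.37 and -0.33 in the sets, and Synpo -0.32 with a standard error of 0.25 and -0.19 and -0.57 in the sets. Both sets gave a lower level with valproic acid for 6 of the 9 genes, these 3 and Kirrel, Ptpro and Tjp1, whereas Plce1 had -0.14 and 0.47. The second set has 1 array a group here, and the 9 genes come from the same arrays. The share of all genes that were lower in both sets is not given here. Blocked on the array set, Nphs1, Podxl and Synpo had unadjusted p-values of 0.067, 0.067 and 0.097 and adjusted p-values of 0.889, 0.889 and 0.893 by limma. The block was drawn from the same values, so these p-values may be too small.

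The median change of the 9 genes was -0.19, against 0.0032 over all genes. The podocyte reference moved with them, with 21 of its 22 genes lower in Tln1 VPA and a median change of -0.23, and its part in the result was not tested beyond the fit below. Its lowest and highest changes were -0.72 for Npr3 and 0.088 for Htra1. The adjusted p was 1.00 for all 9 genes, 0% of all genes were called with group alone and with the set block, and 0 of the 9 had an unadjusted p below 0.05 in either, against 1.26% and 5.43% of all genes. The arrays of the 2 groups overlapped for all 9 genes, and did not for 3.55% of all genes. Without Tln1 vehicle 3 the median change of the 9 genes was 0.15, with 5 higher, and without Tln1 VPA 1 it was 0.031, with 6 higher. The first of these omissions left only first-set arrays under vehicle.

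Between Tln1 VPA and control 8 of the 9 genes had a lower mean in Tln1 VPA, with a median change of -0.37 against 0.024 over all genes, and none passed the test. With the array set as a block 6 were lower and 3 higher, with a median change of -0.21. In the fit of group alone 19 of the 22 reference genes were lower too, with a median change of -0.25. Synpo had 6.45 ± 0.30 (SD, n = 3) in Tln1 VPA and 6.94 ± 0.45 (SD, n = 2) in control, a change of -0.50 with a standard error of 0.28, an interval of -1.15 to 0.16 and an unadjusted p of 0.116 by limma. It was lower in both sets (-0.24 and -0.69). Nphs1 had a change of -0.71 with a standard error of 0.71, made up of 0.010 in first-set and -1.05 in second-set arrays. Cd2ap was the 1 gene with a higher mean, at 10.06 ± 0.15 (SD, n = 3) against 9.91 ± 0.27 (SD, n = 2), a change of 0.15 with a standard error of 0.18.

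Of all genes 0% were called, also with the set block. By limma, 0 of these genes had an unadjusted p below 0.05, against 1.87% of all genes, and 1 with the set block, Cd2ap (0.21, standard error 0.083, adjusted p = 0.588 by limma), against 8.12% of all genes. No gene of the 9 had separate arrays, as 9.55% of all genes did. This comparison turned on the controls as well: without control 1 the median change was -1.18 with 0 of the 9 higher, and without control 2 it was 0.38 with 7 higher. The control left was a second-set array in the former case and a first-set array in the latter. The Tln1 VPA comparisons share their Tln1 VPA arrays, and the 2 comparisons with control share the control arrays, so their values are not independent.

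**Figure D4:**
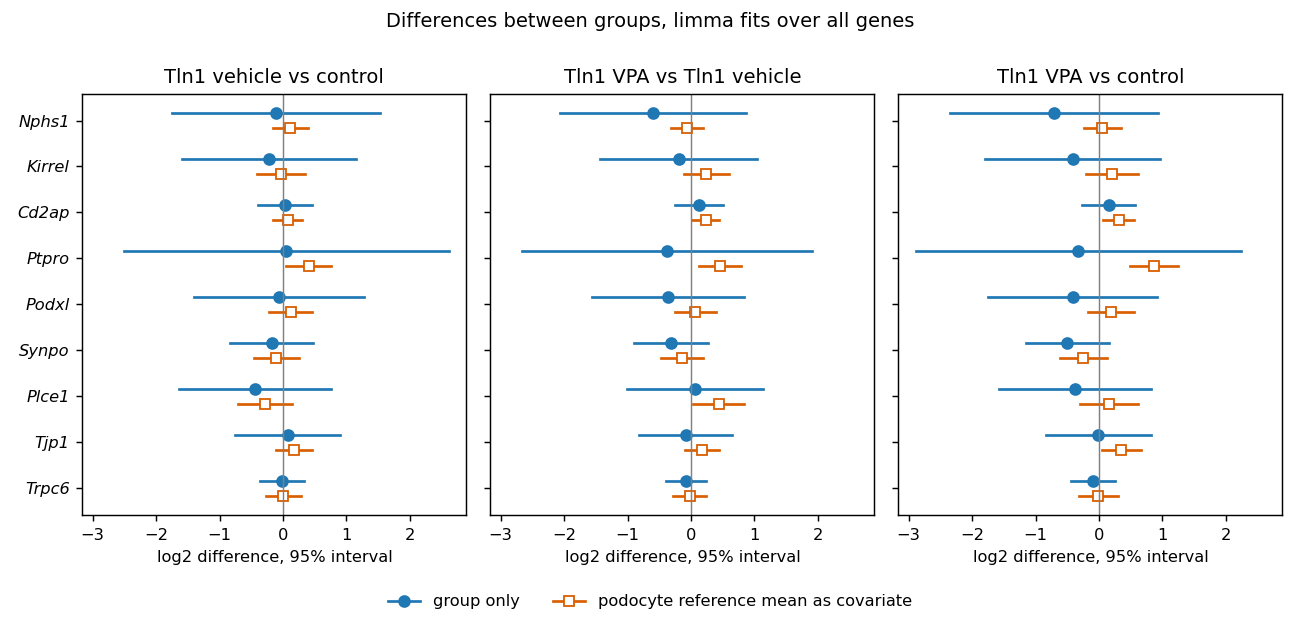
Log2 change with its 95% interval (horizontal axis) for each of the 9 genes in the 3 comparisons, in the fit with group alone and at equal podocyte reference level. The intervals of the group fit all include 0, and those of the reference fit are narrower, with 7 of them clear of 0 before adjustment.

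To compare the genes at equal podocyte reference level, the reference mean of the array was added to the fit as a covariate, which called 0% of all genes in each comparison. In Tln1 vehicle against control 1 of the 9 genes, Ptpro, had an unadjusted p below 0.05 (0.41 higher, interval 0.051 to 0.76, adjusted p = 1.00 by limma), against 4.23% of all genes. The changes of the others lay between -0.28 for Plce1 and 0.18 for Tjp1. For Tln1 VPA against Tln1 vehicle, 3 of the 9 did, against 6.18% of all genes. They were Ptpro (0.46, interval 0.13 to 0.79), Plce1 (0.44, interval 0.038 to 0.84) and Cd2ap (0.24, interval 0.021 to 0.45), each with an adjusted p of 0.754 by limma. For Ptpro the direction depended on the fitted slope, since the change was -0.12 with the reference subtracted outright and -0.38 with group alone. The median change of the 9 genes was 0.17 in this fit, against -0.042 over all genes. Nphs1, at -0.067 with an interval of -0.32 to 0.19, and Synpo, at -0.14, had smaller changes there than in the fit of group alone. With the reference subtracted outright Nphs1 changed by -0.34 and Synpo by -0.060, so the size of the Nphs1 change depended on the fitted slope too.

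For Tln1 VPA against control, 3 of the 9 had an unadjusted p below 0.05, against 8.27% of all genes. They were Ptpro (0.87, interval 0.49 to 1.25, adjusted p = 0.369), Cd2ap (0.31, interval 0.064 to 0.56, adjusted p = 0.512) and Tjp1 (0.35, interval 0.045 to 0.66, adjusted p = 0.547), by limma. The Ptpro value depended on the fitted slope: it was 0.045 with the reference subtracted outright, 0.56 with 4 transcription factors as the reference and 1.00 with the reference median. It was 1.14 without control 1 and 0.75 without control 2. The Tjp1 value was 0.73 without control 1 and 0.19 without control 2. Of the 9 genes 7 had a higher value in this fit, with a median change of 0.19 against -0.043 over all genes, where 8 had a lower mean in the fit of group alone.

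Per array, the level minus the reference was 2.22 and 1.49 for Cd2ap in the controls, 2.06, 2.06 and 1.86 under vehicle and 2.54, 2.37 and 2.21 under valproic acid. All Tln1 VPA arrays were thus above all Tln1 vehicle arrays, but control 1 lay among the Tln1 VPA arrays. For Tjp1 this difference was 1.06 and 0.82 in the controls, 1.11, 1.03 and 1.24 under vehicle and 1.26, 1.26 and 1.39 under valproic acid, where the Tln1 VPA arrays were above all others. On this scale 2 of the 9 genes stood wholly higher in Tln1 VPA than in Tln1 vehicle, against 6.66% of all genes, and 1 of the 9 higher than in control, against 3.35%. Between Tln1 vehicle and control 0 of the 9 did, against 0.852% of all genes. Among the 38 other slit diaphragm and foot process genes described next, these counts were 5, 10 and 4. For Nphs1 it was 0.10 and 1.14 in the controls, 0.49, 0.32 and 1.05 under vehicle and -0.18, 0.34 and 0.68 under valproic acid, and the groups overlapped. The reference itself had its lowest mean in Tln1 VPA, so a gene with a flat level stands higher against it. Markers of 2 other cell types, picked out here by their values, each set 1 group apart while the other groups overlapped. The mean of 5 parietal epithelial markers was 6.33 to 6.63 in Tln1 VPA, 5.76 to 6.09 in Tln1 vehicle and 6.05 to 6.09 in control, so only Tln1 VPA stood apart. The mean of 7 mesangial and smooth muscle markers was 6.76 to 6.96 in the controls, 7.21 to 7.61 under vehicle and 7.13 to 7.23 under valproic acid, so only the controls stood apart. Markers of endothelium, which also makes Podxl and Tjp1, had a mean over 10 genes of 8.95, 8.91 and 9.15 under valproic acid, against 9.40, 8.97 and 9.94 under vehicle and 9.35 and 8.89 in the controls. The part of these cells in the results was not tested.

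Of 42 other genes of the slit diaphragm, foot process adhesion and actin cytoskeleton, 38 were measured and 0 were called by limma in each comparison, with 0, 1 and 1 at an unadjusted p below 0.05, beside the 1.45%, 1.26% and 1.87% of all genes given above. Blocked on the array set these counts were 4, 1 and 5, beside 7.3%, 5.43% and 8.12% of all genes. In Tln1 vehicle against control 23 had a higher and 15 a lower mean, with a median change of 0.054. In Tln1 VPA against Tln1 vehicle the counts were 20 and 18 and the median 0.00052, and in Tln1 VPA against control 17 and 21 and -0.0059. Anln, which encodes the actin-binding protein anillin of cytokinesis and of podocytes, had the smallest p in all 3. Its level was 3.86 and 3.85 in the controls, 4.21, 3.93 and 4.45 under vehicle and 5.0, 4.74 and 4.77 under valproic acid, so the 3 groups did not overlap, at levels around or below the median gene mean of 4.92. The change was 0.34 with a standard error of 0.17 in Tln1 vehicle against control, 0.64 with 0.16 in Tln1 VPA against Tln1 vehicle and 0.98 with 0.17 in Tln1 VPA against control. The last had an adjusted p of 1.00 by limma, and of 0.348 at equal reference level and 0.236 with the set block.

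The next smallest p-values in Tln1 vehicle against control were those of Itgb1 (0.23), the integrin chain that talin binds, Vcl (0.22), vinculin, and Pxn (-0.20), paxillin. Between Tln1 VPA and Tln1 vehicle they were Ezr (0.13), ezrin, which links podocalyxin to actin, Slc9a3r2 (-0.30), its scaffold, and Cfl1 (0.12), cofilin. Between Tln1 VPA and control they were Cdc42 (0.26), a small GTPase that regulates actin, Vcl (0.24) and Parva (-0.35), parvin of the integrin-linked kinase complex. None of these 8 genes passed the test, and the adjusted p was 1.00 for each in these comparisons by limma.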

How the data were processed

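Total RNA of isolated mouse glomeruli was labelled and hybridised to Affymetrix arrays, per the labels' protocols. RMA made the deposited log2 values, per the submitters' processing notes, where limma is named too. Tool versions, annotation and build: not given in the sources used here. Apart from the median gene mean and the podocyte reference, levels of different probe sets were not set against each other. Precision is limited by how few arrays there are.

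Of 41345 probe sets, 23521 had 1 symbol, and the one with the highest mean was kept per symbol, which left 22180 genes. All comparisons came from 1 fit (lmFit and eBayes, limma 3.58.1, R 4.3.3) of group alone, two-sided, with Benjamini-Hochberg adjustment over all genes and calls at an adjusted p below 0.05. A second fit added the podocyte reference mean as a covariate. Genes of these lists that are not reported were not analysed here, and 1 further motif searched is not reported here. The fit of group alone was tested on simulated data that held no array sets, and the other fits were not tested in this way. Plots were made with matplotlib 3.10.9 (Python 3.11.15).

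The genes and lists were chosen with earlier results of these data known. The text names the listed genes, the 4 other slit diaphragm genes with the smallest p per comparison, up to 2 reference genes at either end of a change and the 5 genes of most like profile. Alternatives were the mean of probe sets, a filter on low values, quantile normalisation, trended and robust eBayes, only the groups compared, blocks for the array set or the replicate number, a Y-linked covariate, other references and each array left out. Tln1 vehicle and Tln1 VPA arrays of the same number deviated alike from their group means, with r over genes of 0.570, 0.609 and 0.787, and by the rule used these count as pairs, although the labels state no pairing and numbers 1 and 2 lie in the first array set and 3 in the second. These r cannot tell a pairing from a shared array set, and the main fit did not pair the arrays. Control shares 2 numbers with Tln1 vehicle (r = 0.609 and -0.591) and with Tln1 VPA (0.593 and -0.496) and was not taken as paired. The replicate block nevertheless joined arrays of the same number in all groups, so control 2 of the second set was joined to first-set arrays. Its values against control therefore mix group with array set.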

Additional observations from a re-analysis of the deposited data

How the results depend on the processing

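Under 16 alternatives to the fit of group alone and 13 to the fit at equal podocyte reference level, 0 of the 9 genes were called in any comparison. Of 777 single changes under these alternatives, 101 turned their sign, and the cause was not tested. Here vehicle and VPA stand for the Tln1 vehicle and Tln1 VPA groups. In the fit of group alone, the replicate block changed no call and turned Cd2ap (-0.070), Ptpro (-0.56) and Tjp1 (-0.15) in vehicle against control. The array set as a block turned Nphs1 (0.13), Podxl (0.14) and Trpc6 (0.011) in vehicle against control and Ptpro (0.061) and Tjp1 (0.11) in VPA against control. The Y-linked mean as a covariate turned Kirrel (0.49), Nphs1 (0.63), Plce1 (0.041), Podxl (0.61), Synpo (0.067) and Trpc6 (0.080) in vehicle against control, Plce1 (-0.11) in VPA against vehicle, and Kirrel (0.036), Podxl (0.0065), Ptpro (0.42) and Tjp1 (0.26) in VPA against control.

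In place of the covariate, subtraction of the reference mean turned Podxl (-0.10), Ptpro (-0.12) and Trpc6 (0.18) in VPA against vehicle and Kirrel (-0.046), Nphs1 (-0.34), Plce1 (-0.0056), Podxl (-0.047) and Trpc6 (0.28) in VPA against control. Subtraction together with the replicate block turned Nphs1 (-0.20), Podxl (-0.14) and Ptpro (-0.28) in vehicle against control, Podxl (-0.10), Ptpro (-0.12) and Trpc6 (0.18) in VPA against vehicle, and Kirrel (-0.22), Nphs1 (-0.55), Plce1 (-0.068), Podxl (-0.23), Ptpro (-0.40) and Trpc6 (0.39) in VPA against control. The reference median turned Kirrel (0.037) in vehicle against control and Trpc6 (0.0040) in VPA against control, and the transcription factors alone turned Podxl (-0.086) in VPA against vehicle and Nphs1 (-0.15) in VPA against control. Of all genes, the replicate block called 4 in vehicle against control and 1 in VPA against control, the Y-linked covariate called 21 in VPA against control, and subtraction with the replicate block called 57, 7 and 85 in the 3 comparisons.

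With 1 array left out, the changes of genes that turned their sign in the fit of group alone ranged in vehicle against control from -0.17 to 0.22 for Cd2ap, -1.07 to 0.64 for Kirrel, -1.19 to 0.98 for Nphs1, -1.25 to 0.37 for Plce1, -0.84 to 0.72 for Podxl, -1.69 to 1.80 for Ptpro, -0.50 to 0.14 for Synpo, -0.37 to 0.52 for Tjp1 and -0.070 to 0.055 for Trpc6. In VPA against vehicle they ranged from -0.53 to 0.19 for Kirrel, -0.27 to 0.33 for Plce1, -1.05 to 0.19 for Ptpro, -0.29 to 0.15 for Tjp1 and -0.15 to 0.031 for Trpc6. In VPA against control they ranged from -0.041 to 0.35 for Cd2ap, -1.27 to 0.44 for Kirrel, -1.79 to 0.38 for Nphs1, -1.18 to 0.44 for Plce1, -1.19 to 0.36 for Podxl, -2.07 to 1.42 for Ptpro, -0.45 to 0.44 for Tjp1 and -0.17 to 0.016 for Trpc6. Where control had 1 array left, that array is assumed to vary like the other groups.

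At equal reference level the ranges in vehicle against control were -0.032 to 0.21 for Cd2ap, -0.24 to 0.23 for Kirrel, -0.050 to 0.33 for Nphs1, -0.21 to 0.54 for Podxl, -0.26 to 0.10 for Synpo, -0.059 to 0.48 for Tjp1 and -0.15 to 0.21 for Trpc6. They were -0.067 to 0.17 for Podxl and -0.080 to 0.047 for Trpc6 in VPA against vehicle, and -0.063 to 0.32 for Nphs1, -0.0031 to 0.21 for Plce1, -0.035 to 0.72 for Podxl, -0.36 to 0.011 for Synpo and -0.11 to 0.24 for Trpc6 in VPA against control.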
